A study of Mus musculus with 6 samples.

Results

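Astrocytes that respond to injury, inflammation or demyelination raise a set of genes that marks the reactive state. The set described here holds 10 such genes (Gfap, Vim, Serpina3n, C4b, Cd44, Lcn2, Osmr, Cp, Timp1 and S1pr3) out of 37315 genes listed in the count files, of which 26277 had a read. The question was whether the other 9 genes were higher together with Gfap, since Gfap itself was chosen by its higher level in all 3 altered libraries. The values of Gfap are therefore a description, and no test result is drawn from them.

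The counts came from hippocampus of 4-week-old C57BL/6J mice, with 6 RNA-seq libraries in 3 pairs. The Nestin-Cre pair set Prrc2a f/f, a homozygous floxed allele of the m6A reader Prrc2a, against Prrc2a f/f;Nestin-Cre, in which the recombinase is made in neural progenitors and so reaches neurons, astrocytes and oligodendrocytes. The Olig2-Cre pair set Prrc2a f/f against Prrc2a f/f;Olig2-Cre, in which Cre is expressed from the endogenous Olig2 locus and 1 copy of Olig2 is lost with it. The Fto pair set WT against Fto Tg, which carries a lentiviral transgene of mouse Fto, an m6A demethylase, under the ubiquitin C promoter. The controls of both Prrc2a pairs carry WT in their titles and were read as Prrc2a f/f without Cre. The study also kept Prrc2a f/+;Nestin-Cre littermates as controls and does not state which kind was sequenced. No control was labeled as carrying a Cre or a transgene. An effect of Cre itself, or of the lost Olig2 copy, and an effect of the Prrc2a deletion therefore cannot be told apart. There was a single library per group, and pooling of mice is not stated in the labels.

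Gfap and Vim encode the intermediate filament proteins of astrocytes. Serpina3n is a serine protease inhibitor and C4b a component of the classical complement pathway. Lcn2 encodes the secreted siderophore-binding protein lipocalin 2, Timp1 an inhibitor of metalloproteinases, and Cp the copper-carrying ferroxidase ceruloplasmin. Osmr is a subunit of the oncostatin M receptor, Cd44 a receptor for hyaluronan, and S1pr3 a receptor for sphingosine-1-phosphate. Receptors of the interleukin 6 family, to which Osmr belongs, act through JAK kinases and STAT3, a transcription factor known to drive Gfap in reactive astrocytes. In whole tissue, a change in the number of cells of a type and a change in the RNA per cell cannot be told apart.

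The promoter of Gfap is shown because the list was built around this gene, and that of Lcn2 because it had the largest ratio of the members in every pair. Each window runs from 250 bases before to 50 bases after the RefSeq start on GRCm38.p6, read on the strand of the gene. Capitals mark a match to the STAT motif (TTCNNNGAA) in Gfap and to the C/EBP motif (TTGCNNAA) in Lcn2. The Gfap window is chr11:102897151-102897450 and the Lcn2 window chr2:32387690-32387989, both on the minus strand.
Gfap: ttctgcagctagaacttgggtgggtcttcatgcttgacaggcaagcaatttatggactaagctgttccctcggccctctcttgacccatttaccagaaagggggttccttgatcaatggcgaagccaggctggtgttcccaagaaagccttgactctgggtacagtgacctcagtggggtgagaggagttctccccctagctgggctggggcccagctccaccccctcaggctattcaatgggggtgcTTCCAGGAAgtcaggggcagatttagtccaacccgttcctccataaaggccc
Lcn2: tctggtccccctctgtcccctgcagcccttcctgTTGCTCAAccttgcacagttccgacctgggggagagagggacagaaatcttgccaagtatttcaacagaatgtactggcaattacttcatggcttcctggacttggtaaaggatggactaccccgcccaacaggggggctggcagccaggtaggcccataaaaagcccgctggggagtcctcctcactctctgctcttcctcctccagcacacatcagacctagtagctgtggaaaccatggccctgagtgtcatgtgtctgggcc

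The STAT match in Gfap began at position -2 from the start, and the C/EBP match in Lcn2 at position -216. Across 32851 promoter windows of the same length, 8.30% held the STAT motif and 10.8% the C/EBP motif on either strand. The motif of AP-1 (TGANTCA, 7.81% of windows) was found in Osmr at position 4 and in the upstream window of Cp at position -177. The C/EBP motif was also found in the downstream window of Cp at position -70, and the NF-kB consensus (5.80% of windows) was found in Vim at positions -223 and -141. A window was found for 9 of the 10 genes, of which 5 held any of these motifs. The share of all windows that hold any of them was not computed, and Cp was searched in both of its windows. No enrichment is therefore read from this count. Such matches are letters in a window and do not show that a factor binds there.

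The libraries held 18616540 to 35482589 counts, and 3 counts, taken as the smallest amount that a library can show, corresponded to 0.0846 to 0.161 CPM, the count of a gene scaled to a common library total. The Nestin-Cre library stood apart: mitochondrial genes took 26.2% of its counts against 7.97% to 8.86% in the other 5, and the mean GC content of its counts was 45.7% against 48.5% to 49.2%. With library totals, the median log2 ratio of all genes was -0.72 in that pair and -0.03 after TMM scaling, whereas it lay at -0.01 in the Fto pair and at 0 in the Olig2-Cre pair. Ratios of the Nestin-Cre pair are on library totals unless TMM is named, with the TMM value beside them. As a check of the labels, Prrc2a was at 184 CPM in the Nestin-Cre library and 434 CPM in its f/f control, a log2 ratio of -1.24 that was -0.55 with TMM and 0.26 once GC content and exon length were adjusted for. It was at 346 and 389 CPM in the Olig2-Cre library and its control, a difference that was not called. Fto was at 354 CPM in Fto Tg and 158 CPM in WT. Astrocyte identity genes were present at 7397 to 7434 CPM in sum over 14 genes in the controls.

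On a scale corrected for length, Gfap was the most abundant member in the controls, at 78.3 ± 7.29 RPKM (CPM per kilobase of exon, mean ± SD, n = 3 controls). Serpina3n followed at 17.2 ± 4.36 RPKM, Vim at 8.28 ± 1.26 RPKM and C4b at 4.51 ± 0.689 RPKM, with no overlap between their ranges. S1pr3 (1.91 RPKM), Timp1 (1.81 RPKM) and Cp (1.74 RPKM) overlapped over the controls. Cd44 (1.28 RPKM), Osmr (0.491 RPKM) and Lcn2 (0.229 RPKM) were the lowest. These controls came from 3 experiments, so their SD also includes differences between experiments.

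**Figure D1:**
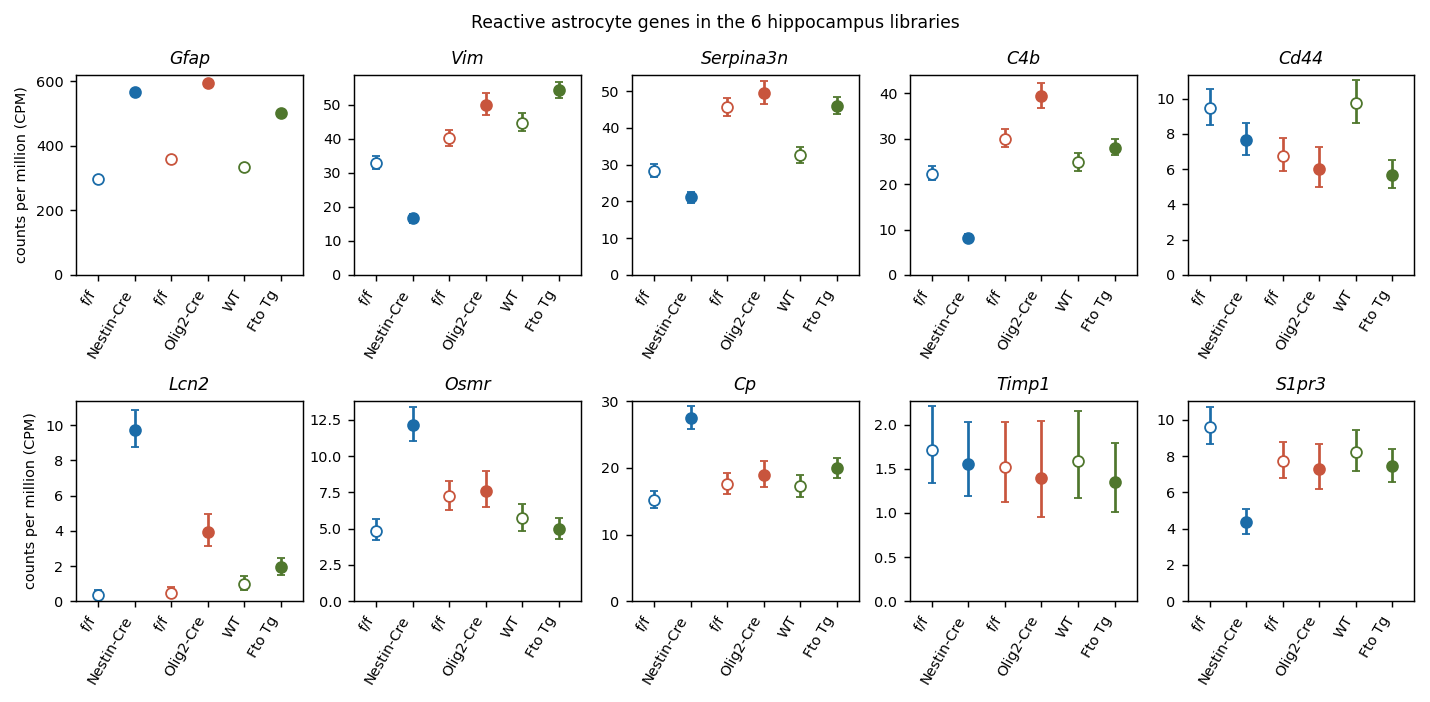
Level of each reactive astrocyte gene in the 6 libraries, in CPM (linear axes from 0). Open points are control libraries, filled points the altered library of the same experiment, and bars Wilson 95% intervals for counting error. Gfap, Lcn2 and Cp lie above all controls in every altered library, and S1pr3 lies below all controls in every altered library. Vim, Serpina3n and C4b are below all controls in the Nestin-Cre library. With TMM scaling, not drawn here, Serpina3n was within the controls.

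Among the filament genes, Gfap was at 298, 359 and 334 CPM in the control libraries of the Nestin-Cre, Olig2-Cre and Fto pairs and at 566, 593 and 500.0 CPM in the altered libraries, in the same order. All 3 altered libraries lay above all 3 controls, with log2 ratios of 0.93, 0.73 and 0.58. In the Nestin-Cre pair the log2 ratio was 1.61 with TMM scaling and 2.09 when adjusted for GC content and exon length. The gene (ENSMUSG00000020932) lies on chromosome 11 at 102887336 to 102900912, on the minus strand.

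Vim, the partner of Gfap in the astrocyte filament, did not share this pattern. In control and altered library, in that order here and for all genes that follow, it was at 32.9 and 16.6 CPM in the Nestin-Cre pair, at 40.1 and 49.96 CPM in the Olig2-Cre pair, and at 44.7 and 54.2 CPM in the Fto pair. The altered library was thus below all controls in the first pair and above them in the other two. A read test at a false discovery rate (FDR) below 0.001 and a fold change of at least 1.2, which compares the 2 libraries and not the genotypes, called Vim lower in the Nestin-Cre pair (log2 ratio -0.99) and higher in the Olig2-Cre (0.32) and Fto (0.28) pairs. With TMM scaling the Nestin-Cre ratio of Vim was -0.30. Both higher calls were close to the fold limit, which is 0.26 on the log2 scale.

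Nes, the filament gene of neural stem cells, was at 14.5 and 23.2 CPM in the Nestin-Cre pair and was called higher there (log2 ratio 0.68, and 1.36 with TMM). It was called in neither of the other pairs, at 16.5 and 16.3 CPM with Olig2-Cre and 13.1 and 11.6 CPM with Fto. Des, a muscle-type filament gene also made by mural cells, was called lower in the Nestin-Cre pair (-1.19, and -0.50 with TMM, but 0.10 when adjusted for GC content and exon length) and higher in the Fto pair (1.12). Of the 5 filament genes and partners other than Gfap, 1 was called higher and 3 lower in the Nestin-Cre pair (2 and 1 with TMM). In the Olig2-Cre pair 1 was higher and 2 lower, and in the Fto pair 2 and 1.

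Lcn2 had the largest ratios of the 10 genes in all 3 pairs, from low control levels. Its counts rose from 13 to 339 with Nestin-Cre (0.366 to 9.75 CPM) and from 14 to 73 with Olig2-Cre (0.482 to 3.92 CPM), and were 24 and 67 in the Fto pair (0.952 and 1.92 CPM). Each altered library lay above all 3 controls. The fold was 26.6 in the Nestin-Cre pair (95% counting interval 15.4 to 50.5, log2 ratio 4.68, and 5.37 with TMM), 8.13 in the Olig2-Cre pair (4.55 to 15.6) and 2.02 in the Fto pair (1.25 to 3.36). The gene was called higher in the first 2 pairs and was not called in the Fto pair. Against the f/f library of the other Prrc2a experiment, the log2 ratio was 4.29 for Nestin-Cre and 3.38 for Olig2-Cre.

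Lcn2 is also made by neutrophils, and the levels of 6 neutrophil genes, chosen after the values of Lcn2 were seen, stand beside it here. S100a8, S100a9, Ngp, Camp, Ltf and Mmp9 summed to 3.17 to 4.64 CPM in the controls, 2.36 CPM in the Nestin-Cre library, 4.14 CPM in the Olig2-Cre library and 5.33 CPM in Fto Tg. With TMM scaling the Nestin-Cre sum was 3.51, within the controls (2.93 to 4.26). Ltf, one of the 6, had log2 ratios of 1.33 in the Nestin-Cre pair (2.01 with TMM) and 1.70 in the Olig2-Cre pair, on 5 to 13 counts, and was not called. The part of neutrophils in the Lcn2 values was not tested. Lcn2 (ENSMUSG00000026822) lies on chromosome 2 at 32384633 to 32388252, on the minus strand.

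Serpina3n, the protease inhibitor, was at 28.3 and 21.1 CPM with Nestin-Cre, 45.6 and 49.6 CPM with Olig2-Cre, and 32.6 and 46.0 CPM with Fto. It was called higher in the Fto pair (log2 ratio 0.50), was not called in the Olig2-Cre pair (0.12), and was called lower in the Nestin-Cre pair (-0.42). The direction in the Nestin-Cre pair turned with the scaling, to 0.26 with TMM and 0.62 with the adjustment for GC content and exon length. The 3 controls ran from 28.3 to 45.6 CPM, a range that holds nearly all of the difference seen in the Fto pair. Serpina3n lies in a cluster of similar genes, and reads that match several of them were not counted.

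C4b, the complement component, was at 22.3 and 8.08 CPM with Nestin-Cre, 30.01 and 39.4 CPM with Olig2-Cre, and 24.8 and 28.0 CPM with Fto. It was called lower in the Nestin-Cre pair (log2 ratio -1.46, -0.78 with TMM, and -0.40 when adjusted for GC content and exon length). It was called higher in the Olig2-Cre pair (0.39) and was not called in the Fto pair (0.18). C4b has a nearly identical neighbor, C4a, so its counts are uncertain. C4a was called lower in the Nestin-Cre pair, at 2.48 and 1.09 CPM, and was called in no other pair. Its log2 ratio there was -1.17, -0.49 with TMM, and -0.15 when adjusted for GC content and exon length. C4b also lies on chromosome 17 (34728380 to 34743882), 405193 bases from the floxed Prrc2a gene.

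Osmr, the cytokine receptor subunit, was at 4.88 and 12.1 CPM in the Nestin-Cre pair, where it was called higher (log2 ratio 1.31, and 2.0 with TMM). It was called in neither of the other pairs, at 7.23 and 7.63 CPM with Olig2-Cre and 5.71 and 4.96 CPM with Fto. The controls ran from 4.88 to 7.23 CPM, so that the Nestin-Cre library lay far above them, the Olig2-Cre library just above and Fto Tg within. Cp, the ferroxidase, was at 15.2 and 27.5 CPM with Nestin-Cre, 17.6 and 18.96 CPM with Olig2-Cre, and 17.2 and 19.9 CPM with Fto. Every altered library was above every control for Cp, but the gene was called higher in the Nestin-Cre pair alone (0.86, and 1.54 with TMM, against 0.11 and 0.21).

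Cd44, the hyaluronan receptor, went the other way in the Fto pair, where it was at 9.76 CPM in WT and 5.68 CPM in Fto Tg and was called lower (log2 ratio -0.78). The controls ran from 6.75 to 9.76 CPM, a range that holds most of this difference, and this WT was the highest of them. Cd44 was at 9.47 and 7.65 CPM with Nestin-Cre and 6.75 and 6.02 CPM with Olig2-Cre, and neither difference was called (-0.31, but 0.38 with TMM, and -0.16). S1pr3, the sphingosine-1-phosphate receptor, was called lower in the Nestin-Cre pair, at 9.61 and 4.34 CPM (-1.14), a call that was lost with TMM scaling (-0.46). It was not called in the others, at 7.72 and 7.31 CPM with Olig2-Cre and 8.21 and 7.42 CPM with Fto. Every altered library was below every control for S1pr3, also with TMM scaling. Of all genes, 68.0% lay below all controls in the Nestin-Cre library (43.0% with TMM). It was 29.5% in the Olig2-Cre library and 29.0% in Fto Tg. Timp1, the metalloproteinase inhibitor, was called in no pair. Its counts were low, 26 to 61 in a library, and its levels were 1.72 and 1.55 CPM, 1.52 and 1.40 CPM, and 1.59 and 1.35 CPM in the Nestin-Cre, Olig2-Cre and Fto pairs. The Nestin-Cre ratio changed sign with the scaling, from -0.14 to 0.54 with TMM. The 95% counting intervals of its fold were wide, 0.615 to 1.33, 0.545 to 1.53 and 0.545 to 1.33, so a change within them was not detectable at this depth.

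**Figure D2:**
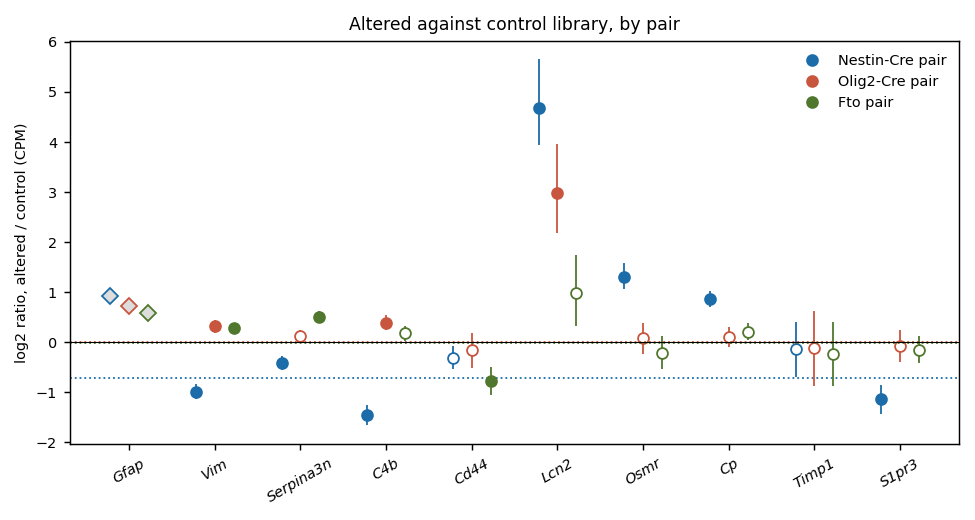
Log2 ratio of altered to control CPM for each gene in the Nestin-Cre, Olig2-Cre and Fto pairs. Filled points passed the read test, open points did not, gray diamonds are Gfap, which is described only, bars are 95% counting intervals, and dotted lines give the median of all genes tested in each pair (-0.72 in the Nestin-Cre pair). Gfap, Lcn2 and Cp are above 0 in all pairs, and Cd44, Timp1 and S1pr3 are below 0 in all pairs. Vim and C4b were called lower in the Nestin-Cre pair and higher in the Olig2-Cre pair.

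Of the 9 genes other than Gfap, 3 were called higher and 4 lower in the Nestin-Cre pair, where 11.5% of all genes tested were called higher and 53.4% lower. With TMM scaling these counts were 3 higher and 2 lower, where 28.4% of all genes were called higher and 29.8% lower, shares near those of the 9. In the Olig2-Cre pair 3 were called higher (Vim, C4b and Lcn2) and 0 lower, against 4.95% and 6.91% of all genes. In the Fto pair 2 were called higher (Vim and Serpina3n) and 1 lower (Cd44), against 6.97% and 8.51%. The median log2 ratio of the 9 genes was -0.31, 0.11 and 0.18, beside -0.72, 0 and -0.01 for all genes tested. As the genes were chosen with ratios of these pairs known, these counts describe the list and test nothing.

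The same genes were compared with the range of all 3 controls. In the Nestin-Cre library, 3 of the 9 lay above all controls and 4 below, where 18.5% and 68.0% of all genes did so. With TMM scaling it was 5 above and 3 below (40.8% and 43.0% of all genes). In the Olig2-Cre library it was 6 above and 3 below (29.5% and 29.5% of all genes), and in Fto Tg 4 above and 3 below (29.3% and 29.0%). On library totals, positive ratios in all 3 pairs were found for 2 of the 9 (Lcn2 and Cp) and for 5.08% of the 17047 genes tested in all pairs. Cd44, Timp1 and S1pr3 had negative ratios in all 3 pairs. The share of all genes with negative ratios in all 3 was not computed. Nor was the share above, or below, all controls in all 3 altered libraries, as Lcn2, Cp and S1pr3 were. Nothing is therefore read from these patterns. With TMM scaling S1pr3 alone of Cd44, Timp1 and S1pr3 stayed negative in all 3, and Serpina3n was positive in all 3 beside Lcn2 and Cp.

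Of the other 9, 0 were called higher in all 3 pairs. Over all 17047 genes it was 7 (0.0411%), a count that holds Gfap by choice and from which nothing is read. Vim was the member other than Gfap that was called higher in both the Olig2-Cre and Fto pairs, as were 2.39% of all genes. By distance between the 3 ratios, each relative to its pair's median, the genes nearest to Gfap among 10702 with at least 100 counts in every library were Muc6 (0.37), Copz2 (0.46), Pfn1 (0.50), Fam122a (0.52) and Foxo1 (0.52). Of the members, Cp was nearest, at rank 67, followed by Osmr at rank 716, and C4b was farthest, at rank 8099. The ratios were not scaled, so the Nestin-Cre pair, where far more genes were called than in the others, weighs most. Osmr had ratios of 0.08 and -0.21 in the Olig2-Cre and Fto pairs, whereas Vim, called higher in both, was at rank 5641. Lcn2 and Timp1 fell short of 100 counts in a library and were not ranked.

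**Figure D3:**
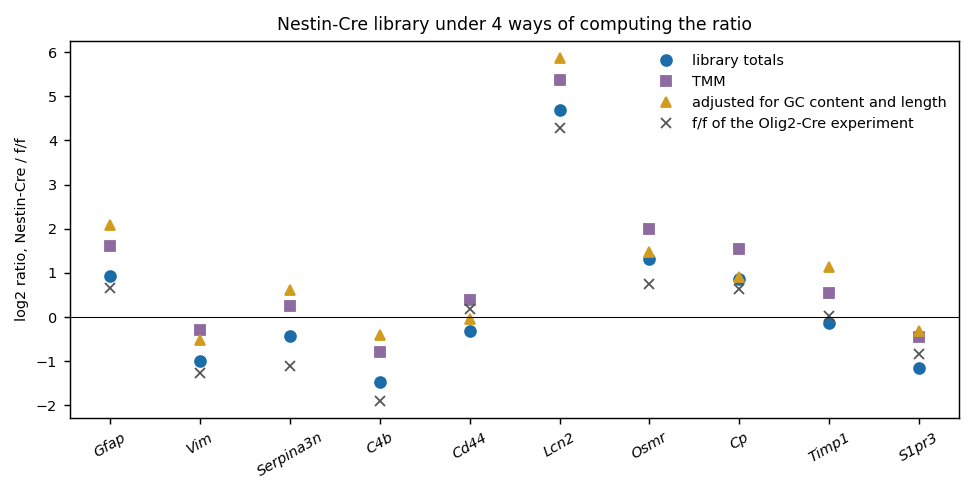
Log2 ratio of the Nestin-Cre library to a control for each gene under library totals, TMM scaling, adjustment for GC content and exon length, and with the other Prrc2a f/f library as control. Gfap, Lcn2, Osmr and Cp are above 0 in all 4, Vim, C4b and S1pr3 below 0 in all 4, and Serpina3n, Cd44 and Timp1 change sign.

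A contrast over all 6 libraries, with the experiment as a block and 2 residual degrees of freedom, asked whether genes moved alike in the 3 altered libraries. By the quasi-likelihood test of edgeR with Benjamini-Hochberg adjustment, 0 of 17371 genes (0.0%) passed, and 204 genes had an unadjusted p under 0.05. The log2 fold change was 3.12 ± 0.97 (SE) for Lcn2 (adjusted p = 0.954), 0.62 ± 0.36 for Cp, 0.62 ± 0.52 for Osmr, 0.30 ± 0.19 for Serpina3n and 0.11 ± 0.22 for Vim. For Gfap, given as a description, it was 0.98 ± 0.29. DESeq2 called 2 genes, one of them Lcn2 (3.15 ± 0.65, adjusted p = 0.0222). Without the Nestin-Cre pair, edgeR called 632 genes higher (3.78%) and 851 lower (5.09%) of 16705 tested on 1 residual degree of freedom. Of the 9 genes, Vim was then the one called (0.30 ± 0.06, adjusted p = 0.0409), and Lcn2 was at 1.96 ± 0.48 (adjusted p = 0.0555). Without the Fto pair Lcn2 was called, at 4.23.

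Genes of astrocyte identity, 14 in all, summed to 7861 CPM in the Nestin-Cre library, 7018 CPM in the Olig2-Cre library and 6918 CPM in Fto Tg, beside 7397 to 7434 CPM in the controls. The sums of the last 2 libraries rested on Slc1a2, the main glutamate transporter of astrocytes. It was called lower in both pairs, at 3281 and 2519 CPM with Olig2-Cre and 3164 and 2431 CPM with Fto (log2 ratio -0.38 in each), and was not called with Nestin-Cre (3318 and 3704 CPM). Without Slc1a2 the direction turned, with 4498 and 4486 CPM in these libraries, above the 4079 to 4236 CPM of the controls, and 4157 CPM in the Nestin-Cre library. With TMM scaling all 14 summed to 11700 in the Nestin-Cre library against 6793 to 6871 in the controls. Other lists also rose there with TMM, with neuron genes at 9294 against 4635 to 4874 and mural genes at 329 against 154 to 173. Lists of other cell types, such as choroid plexus, stayed below the controls. The median log2 ratio of the 14 astrocyte identity genes was 0.08 with Olig2-Cre and 0.08 with Fto. Of the 14, 4 were called higher and 6 lower in the Nestin-Cre pair (8 and 5 with TMM), 3 higher and 1 lower with Olig2-Cre, and 1 higher and 1 lower with Fto. These counts and those of the lists below stand beside the shares of all genes called, which in the Nestin-Cre pair were 11.5% higher and 53.4% lower (28.4% and 29.8% with TMM), with Olig2-Cre 4.95% and 6.91%, and with Fto 6.97% and 8.51%. Aqp4, the astrocyte water channel, was at 181 and 307 CPM in the Nestin-Cre pair and was called higher there (log2 ratio 0.76, and 1.45 with TMM), but not in the Olig2-Cre pair (218 and 233 CPM) or the Fto pair (194 and 180 CPM). Aldh1l1, a folate enzyme of astrocytes, was at 47.4 and 16.1 CPM in the Nestin-Cre pair and was called lower (-1.56, and -0.87 with TMM). Slc1a3, a glutamate transporter, was at 529 and 638 CPM there and was called higher (0.27, and 0.96 with TMM).

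Of 11 genes of the A1 type, which are raised after inflammatory stimulation, 2 were called higher and 7 lower in the Nestin-Cre pair (2 and 3 with TMM). In the Olig2-Cre pair 0 were called, and with Fto 1 was higher and 2 lower. Srgn, a proteoglycan core protein, was called higher in the Nestin-Cre pair (log2 ratio 1.94, and 2.63 with TMM), and Fbln5 in the Fto pair (1.08). Of 12 genes of the A2 type, raised after ischemia, 11 were tested, with 0 called higher and 6 lower in the Nestin-Cre pair (1 and 4 with TMM), 0 called in the Olig2-Cre pair, and 2 higher (S100a10 at 0.37 and Tm4sf1 at 0.60) in the Fto pair. The 4 other pan-reactive genes gave no call higher in any pair. In the Nestin-Cre pair 3 were tested and 2 called lower (2 with TMM), and 0 were called lower in the other pairs. In the Nestin-Cre pair Hspb1, a small heat shock protein, was called lower (-1.78, and -1.10 with TMM), with a ratio of 0.32 when adjusted for GC content and exon length.

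In the cytokine and STAT3 list, 3 of 16 genes tested were called higher and 7 lower in the Nestin-Cre pair (6 and 6 with TMM). With Olig2-Cre 0 of 14 were higher and 3 lower, and with Fto 0 of 15 were called. Stat3 was at 45.0 and 21.2 CPM in the Nestin-Cre pair, where it was called lower (log2 ratio -1.09, and -0.40 with TMM). It was at 55.5 and 57.5 CPM with Olig2-Cre and 50.8 and 52.5 CPM with Fto, without a call. Socs3, a feedback inhibitor induced by STAT3, was at 2.34 and 0.259 CPM in the Nestin-Cre pair and was called lower (-3.11, and -2.42 with TMM), and it was called in neither of the others (1.79 and 2.47 CPM, 1.91 and 1.40 CPM). The 7 of 16 called lower were a smaller share than the 53.4% of all genes.

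Among 11 complement genes, 0 were called higher and 6 lower in the Nestin-Cre pair (3 and 4 with TMM), shares near those of all genes on the TMM scale, and 3 were higher with Olig2-Cre and 2 with Fto, and 0 were lower in either. C1qa, a subunit of the initiating complex made mainly by microglia, was at 30.3 and 8.92 CPM in the Nestin-Cre pair and was called lower (-1.76, and -1.08 with TMM, but 0.10 when adjusted for GC content and exon length). It was called higher in the Olig2-Cre pair (32.7 and 42.2 CPM) and in the Fto pair (31.2 and 43.3 CPM). C3, often used to mark A1 astrocytes, was at 0.366 and 0.374 CPM, 1.83 and 1.18 CPM, and 1.11 and 0.774 CPM in the 3 pairs and was called in none.

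**Figure D4:**
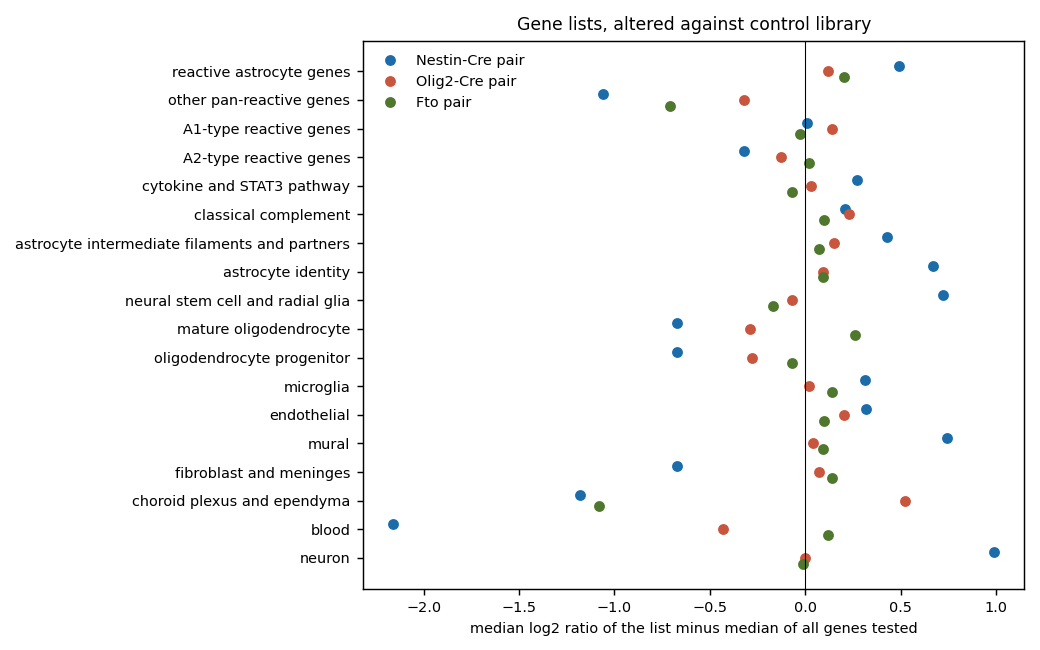
Median log2 ratio of each gene list minus the median of all genes tested, in the 3 pairs (1 point per pair, no error because each group has 1 library). The reactive astrocyte genes (Gfap included) lie 0.49, 0.12 and 0.20 above the median of all genes in the Nestin-Cre, Olig2-Cre and Fto pairs. The choroid plexus genes lie 1.18 below, 0.52 above and 1.08 below it. Other lists lie further above it than the reactive genes, and others lie below it. Those further above include astrocyte identity (0.67) and neuron (0.99) with Nestin-Cre, complement (0.23) with Olig2-Cre and mature oligodendrocyte (0.26) with Fto.

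Markers of other cell types moved between the same libraries. Choroid plexus and ependyma genes, 8 in all, summed to 1664 to 2888 CPM in the controls, 275 CPM in the Nestin-Cre library, 3439 CPM in the Olig2-Cre library and 713 CPM in Fto Tg. Genes of fibroblasts and meninges, which also make Vim, summed to 131 to 149 CPM in the controls and 78.0, 164 and 163 CPM in the altered libraries. With TMM scaling both lists stayed below all controls in the Nestin-Cre library, at 410 against 1528 to 2675 and at 116 against 121 to 137. Their part in the values of Vim and Cp was not tested. Microglial genes summed to 260 to 303 CPM in the controls and to 199, 313 and 297 CPM in the altered libraries, and mature oligodendrocyte genes to 8561 to 9866 CPM in the controls and 6643, 6796 and 11410 CPM in the altered libraries. For both lists the Nestin-Cre library went from below to above all controls with TMM scaling, at 297 against 240.4 to 280 for microglia and 9889 against 7912 to 9057 for oligodendrocytes.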

How the data were processed

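RNA-seq counts per gene were available for 6 hippocampus libraries, grouped by their genotype labels or titles into 3 pairs. The deposited values are whole-number read counts, not normalized. The authors trimmed reads with Cutadapt and Trimmomatic, aligned them to mm10 with TopHat (TopHat2 2.0.9 in the submitters' processing notes, another version in the methods), kept uniquely mapped reads and counted them with HTSeq 0.6 in union mode, without strand. Reads shared by near-identical genes were therefore lost. Whether reads were counted singly or as pairs is not clear from the sources.

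Counts were scaled by library totals (18616540 to 35482589) to CPM. Wilson 95% intervals and the floor of 3 counts cover counting error only. Each pair was tested with the MARS method of DEGseq, programmed from its formulas in Python 3.11.15 (0.5 added to each count, at least 10 counts over the pair, FDR below 0.001, fold of at least 1.2). It compares libraries, not genotypes. The contrast over 6 libraries used edgeR 4.0.16 in R 4.3.3 (quasi-likelihood test, TMM, filterByExpr, FDR below 0.05), with DESeq2 1.42.0 as an alternative. Its p-values rest on the spread between libraries of different genotypes. Both tests were run on simulated counts with known changes. Those for the read test held no variation between animals, and those for edgeR had a smaller spread than these libraries. The runs therefore do not show how the tests behave on the present data. Other scalings, filters, controls and fold limits, a GC and length adjustment, and fits without 1 pair were tried. Coordinates, exon lengths and GC content came from GENCODE annotation of GRCm38, and promoters from RefSeq.

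The members and gene lists were chosen with earlier results of these data known. The text names all 10 members, Prrc2a, Fto, Aqp4, Aldh1l1, Slc1a3, Stat3, Socs3, C3, C4a and Nes, at most the 2 highest and 2 lowest genes of a list in a pair (at least 100 counts), and the 5 genes nearest to Gfap. The neutrophil list was added after values were seen.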

Additional observations from a re-analysis of the deposited data

Results flagged for a closer look

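Vim and C4b were called in opposite directions in the 2 Prrc2a pairs. The log2 ratio of Vim was -0.99 with Nestin-Cre and 0.32 with Olig2-Cre, and that of C4b was -1.46 with Nestin-Cre and 0.39 with Olig2-Cre. With 1 library per group, the difference between the pairs was not tested. Both genes stayed below 0 in the Nestin-Cre pair with TMM scaling (-0.30 and -0.78), where the median of all genes was -0.03. When adjusted for GC content and exon length, Vim was at -0.51 and C4b at -0.40 there.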

How the results depend on the processing

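Gfap is left out of these counts. Of 153 ratios of the other 9 genes recomputed within pairs under another setting, 131 kept their direction and their side of the threshold, 14 changed sign, 4 lost a call and 4 gained one. Of 72 values of the edgeR contrast under another setting, with DESeq2 among the settings, 59 did so, 10 changed sign and 3 gained a call. The gained calls include that of Lcn2 by DESeq2. In the Nestin-Cre pair, Serpina3n was at 0.26 (TMM), 0.29 (size factors of DESeq2) and 0.62 (GC and length adjustment). Cd44 there was at 0.38 (TMM), 0.41 (size factors), 0.01 (without mitochondrial genes) and 0.18 (other f/f control). Timp1 was at 0.54, 0.57, 0.17 and 0.03 under these settings and at 1.13 with the adjustment. The adjustment also put Serpina3n at -0.01 with Olig2-Cre and Osmr at 0.03 with Fto. The edgeR values that changed sign were Vim at -0.12 (library totals) and -0.01 (without the Olig2-Cre pair), C4b at 0.06 (no block), 0.29 (without the Nestin-Cre pair) and 0.01 (Cre libraries only), Cd44 at 0.11 (without the Fto pair) and 0.18 (Cre libraries only), Osmr at -0.06 (without the Nestin-Cre pair), and Timp1 at -0.17 (library totals) and -0.18 (without the Nestin-Cre pair). When 1 pair was left out, Vim ran from -0.01 to 0.30, C4b from -0.30 to 0.29, Cd44 from -0.49 to 0.11, Osmr from -0.06 to 1.05 and Timp1 from -0.18 to 0.23. Among the 9 genes other than Gfap in the Nestin-Cre pair, 5 were called higher with the size factors or the adjustment, and 2 lower with TMM or either of them. In the Olig2-Cre pair, the other f/f control gave 5 higher and 1 lower, and a fold limit of 1.5 left 1 higher. In the Fto pair that limit left 0 higher. The contrast over all libraries gave 0 to 1483 genes when 1 pair was left out: 1483 without the Nestin-Cre pair, 0 without the Olig2-Cre pair and 2 without the Fto pair. DESeq2 gave 2. The cause of these changes was not tested. The contrast paired the libraries by experiment, and without that block 0 genes passed as well, with 308 at an unadjusted p under 0.05. Sums of the lists with TMM, and lists without Slc1a2 or Gfap, were added after seeing the data. Depth limits Lcn2 and Timp1 most, with control counts of 13 to 24 and 40 to 61.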

Other observations

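The 6 genes other than Gfap called higher in all 3 pairs were the actin-binding gene Pfn1, the ribosomal protein genes Rpl19, Rpl26 and Rps6, and Btf3 and Nabp2, named here after their values were seen. Ribosomal protein genes have many near-identical copies, so their counts are uncertain.

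Of 10 mature oligodendrocyte genes, 1 was called higher and 7 lower in the Nestin-Cre pair (3 and 6 with TMM), 0 higher and 6 lower with Olig2-Cre, and 4 higher and 0 lower with Fto. Of 6 progenitor genes, 0 were higher and 6 lower with Nestin-Cre (0 and 5 with TMM), 1 and 4 with Olig2-Cre, and 1 and 2 with Fto. Beside these counts, 11.5% of all genes were called higher and 53.4% lower with Nestin-Cre (28.4% and 29.8% with TMM), 4.95% and 6.91% with Olig2-Cre, and 6.97% and 8.51% with Fto.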
